A study of Danio rerio with 4 samples.

Results

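Genes that mark leukocytes, the white cells of blood and immune organs, were examined in a sort of adult zebrafish pancreas. The genes are ptprc, wasa, lck, cd4, rag1, ighm, tnfa, marco and lyz, taken by name from the authors' deposited tables of genes called different, and all 9 had a row among 3020 distinct listed genes. They were grouped by what they mark into 2 pan-leukocyte, 4 lymphoid and 3 myeloid genes. The study sequenced RNA of centroacinar cells (CAC) and of non-centroacinar cells (non-CAC). Both were sorted by fluorescence from dissociated pancreas cells of adult fish of the AB strain. Each group had 2 libraries, and each deposited table compares the CAC library with the non-CAC library of 1 replicate. The labels name no transgene or other mark used for the gate, and are silent on whether separate fish gave the replicates, so p-values and spread here may reflect technical variation.

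Leukocytes arise from blood stem cells along lymphoid and myeloid branches. Lymphocytes assemble antigen receptor genes by V(D)J recombination and signal through those receptors, while macrophages and neutrophils take up and kill microbes and release cytokines. The pancreas is perfused by blood and holds resident immune cells, so a sort that gates out one epithelial population can carry leukocytes in either fraction.

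The tables give 2 linear ratios per gene, a posterior fold (the fold after the authors' model) and an uncorrected fold, and a posterior probability of equal expression. The headers do not name the population in the numerator, so genes are placed above or below 1 and no side is assigned to CAC or non-CAC. The lowest probability of difference in the authors' deposited tables was 0.99, so only called genes are seen, and the level of a gene that is not listed is unknown. Both folds of a table are reproduced by ratios of the same pair of values with a different constant added in each column, and solving for that pair gave an estimated count in each library, called the recovered count here. Recovered counts are not scaled to gene length, so they are compared between libraries and not between genes. Ratios set on recovered counts were scaled by the depth factors of the libraries, and the numerator library had 1.71 times the depth factor of the denominator library in replicate 1 and 0.802 times in replicate 2. The total depth of each library is unknown.

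All 8 leukocyte genes listed in replicate 1 and all 3 listed in replicate 2 lay above 1. Above 1 lay 66.6% of all listed genes in replicate 1 and 42.9% in replicate 2. The genes had been picked from leukocyte genes already known to lie above 1, so their shared side is a description and carries no test. In replicate 1 the denominator library held a recovered count of 0 for 6 of the 8 genes and of 1 for the other 2, while the numerator library held 112 to 433. Among all genes above 1 in that table, 63.6% had a denominator count of 0 and 73.1% a count of 0 or 1, so this pattern was the usual one there. Of the 606 genes below 1 in replicate 1, 52 had a numerator count of 0. No ratio above 1 under 35.3 was listed in replicate 1, and the lowest numerator count opposite a 1 was 157. A gene at the counts of ighm or rag1 could thus be listed there only with a denominator count near 0. In replicate 2 the denominator library held 30 counts of ptprc, 28 of rag1 and 0 of tnfa, where 9.7% of the genes above 1 were at 0 and 13.7% at 0 or 1. Of the 890 genes below 1 in replicate 2, 98 had a numerator count of 0. Of the 9 genes, tnfa and rag1 were listed in both tables, while ptprc was listed in replicate 2 alone and the other 6 in replicate 1 alone. Of all distinct listed genes, 11.7% were in both tables. In these bulk libraries, fewer cells of a type and less RNA per cell cannot be told apart.

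**Figure D1:**
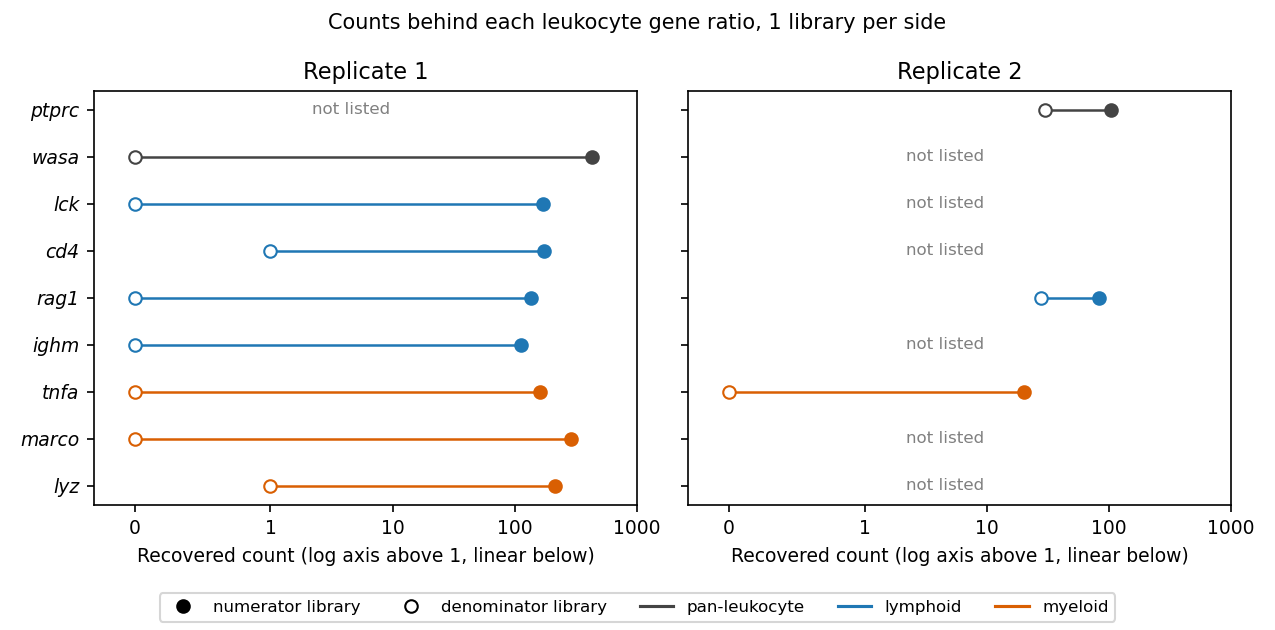
Recovered counts of the 9 leukocyte genes in the numerator library (filled) and the denominator library (open) of each replicate, on an axis that is logarithmic above 1 and linear below it. In replicate 1 every open point is at 0 or 1 and every filled point is at 112 or more, and in replicate 2 only the open point of tnfa is at 0. Only called genes are shown, and no ratio above 1 under 35.3 was listed in replicate 1, which favours low open points there.

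Of the pan-leukocyte genes, ptprc encodes a receptor tyrosine phosphatase present on nearly all leukocytes, and wasa encodes an actin regulator of blood cells of the Wiskott-Aldrich syndrome family. The ptprc gene (Zv9 chromosome 22, 24703748 to 24794350) had recovered counts of 104 in the numerator library and 30 in the denominator library of replicate 2. The authors' deposited table gave it a posterior fold of 4.22 and a probability of equality of 0.000629. Scaled for depth, the ratio of recovered counts was 4.32, with an exact 95% interval of 2.86 to 6.72 that covers counting error only. Both libraries thus held ptprc reads. The gene is listed because it was called different, so the interval shows only how precise the ratio is.

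The wasa gene (chromosome 8, 26482664 to 26496875) had recovered counts of 433 and 0 in replicate 1. Its posterior fold was 230 in the authors' deposited table, and 15.5% of the genes above 1 in that table lay farther from 1. Against the limit of 3 counts that a count of 0 allows in the denominator library, it was at least 84.4-fold higher in the numerator library. Such lower bounds take the higher count as exact and leave out its counting error. They also leave out the selection by listing, which in replicate 1 favoured genes with a low denominator count. By posterior fold no other member lay as far from 1, but at a denominator count of 0 that fold follows the numerator count. Its relative wasb, on the same chromosome, was listed in replicate 2 alone, with recovered counts of 199 and 27 and a posterior fold of 8.91 in the authors' deposited table. Each of the related genes was thus listed above 1 in 1 replicate only, where 11.7% of all distinct listed genes were listed in both. The wasb fold was also under the lowest ratio above 1 listed in replicate 1 (35.3).

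Of the lymphoid genes, rag1 encodes a subunit of the recombinase that cuts antigen receptor genes in developing lymphocytes. The rag1 gene (chromosome 25, 9231636 to 9238142) had recovered counts of 135 and 0 in replicate 1 and of 83 and 28 in replicate 2. The authors' deposited tables gave posterior folds of 72.5 and 3.61. In replicate 1 it was at least 26.3-fold higher in the numerator library. In replicate 2 the depth-scaled ratio was 3.70, with an exact 95% interval of 2.38 to 5.89 for counting error. The side was the same in both pairs. No ratio above 1 under 35.3 was listed in replicate 1, so a ratio of the size seen in replicate 2 could not have been listed there. Why the ratios of rag1 differ between the replicates was not tested. The other recombinase gene, rag2, was in neither table. Of the 14 names on the V(D)J recombination list, the remaining one listed was an XRCC6 gene, of the end-joining step, below 1 in replicate 1 with recovered counts of 13.6 and 660.

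The lck gene encodes the Src-family kinase that starts T cell receptor signalling, and cd4 encodes a T cell co-receptor. The lck gene (chromosome 17, 25134651 to 25237123) had recovered counts of 170.0 and 0 in replicate 1, at least 33.1-fold higher in the numerator library. The authors' deposited table gave it a posterior fold of 91.0 and a locus of 102473 bases, the longest of the 9, under an Ensembl identifier that the name table used here does not hold. The cd4 gene (chromosome 16, 13661903 to 13696146), called cd4-1 in the name table, had recovered counts of 172 and 1 in replicate 1. Its depth-scaled ratio was 101, and the exact 95% interval of 17.8 to 3996 was wide because the denominator rests on 1 count. Its posterior fold of 48.3 in the authors' deposited table was the lowest of the 8 members in replicate 1. The neighbouring cd4-2.2 gene, 15.5 kb away on the same chromosome, was listed in replicate 2 alone. It had recovered counts of 13.9 and 0 there, at least 5.78-fold higher in the numerator library. The T cell co-receptor genes of this locus were thus each listed above 1 in 1 replicate only, as were wasa and wasb. Of all distinct listed genes 11.7% were listed in both replicates, so a listing in 1 alone was the usual pattern. The posterior fold of cd4-2.2 (19.4) was also under the lowest ratio above 1 listed in replicate 1 (35.3).

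The ighm gene encodes the heavy chain of immunoglobulin M, the receptor and antibody of B cells. It (chromosome 3, 34048542 to 34145449) had recovered counts of 112 and 0 in replicate 1 and a posterior fold of 60.3 in the authors' deposited table. It was at least 21.8-fold higher in the numerator library. Among genes above 1 in replicate 1 this was close to the smallest signal listed opposite a 0, since the lowest such numerator count was 104. The next gene in the locus, ighd, of the delta heavy chain, lies 1.66 kb away and was listed in replicate 2 alone and below 1. Its recovered counts there were 0 in the numerator library and 25 in the denominator library, at least 6.68-fold higher in the denominator library. Heavy chain genes of B cells were therefore on opposite sides in the 2 replicates, each resting on 1 pair of libraries. The identifier of ighm is another that the name table does not hold, and reads from variable segments within the locus may be counted with it.

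Of the myeloid genes, tnfa encodes tumor necrosis factor, a cytokine of activated macrophages that lymphocytes also make. The tnfa gene (chromosome 19, 27505096 to 27509684) had recovered counts of 160.0 and 0 in replicate 1 and of 20 and 0 in replicate 2. It was at least 31.2-fold higher in the numerator library of replicate 1 and at least 8.31-fold higher in that of replicate 2. The authors' deposited tables gave posterior folds of 85.7 and 27.5. Of the 2 members listed in both tables, tnfa had a denominator count of 0 in both and rag1 in replicate 1 alone. By posterior fold 6.72% of the genes above 1 lay farther from 1 than tnfa in replicate 2, against 55.1% in replicate 1. These places are not alike, because 9.7% of the genes above 1 had a denominator count of 0 in replicate 2 and 63.6% in replicate 1. The bound of 8.31 is also under the depth-scaled ratio of lcp1 in replicate 2 (11.6), a gene placed nearer to 1 by posterior fold (11.0). Of the 48 names on the list of TNF ligands, receptors and NF-kappaB factors, the only other one listed was tnfsf10l3, a TNF-family ligand gene, below 1 in replicate 1 with recovered counts of 242 and 2817. No TNF receptor gene of that list was in either table.

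The marco gene encodes a scavenger receptor of macrophages, and lyz encodes lysozyme, which degrades bacterial cell walls and marks neutrophils and macrophages in zebrafish. The marco gene (chromosome 9, 782021 to 793832), written MARCO in the file, had recovered counts of 289 and 0 in replicate 1, at least 56.3-fold higher in the numerator library. Its posterior fold was 154 in the authors' deposited table. The lyz gene (chromosome 24, 24643810 to 24646748) had recovered counts of 212 and 1 in replicate 1 and a posterior fold of 59.4 in the authors' deposited table. Its depth-scaled ratio was 124, with an exact 95% interval of 22.0 to 4921 for counting error. Both genes thus had 0 or 1 count in the denominator library of replicate 1, where listing favours low denominator counts. Neither was listed in replicate 2.

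**Figure D2:**
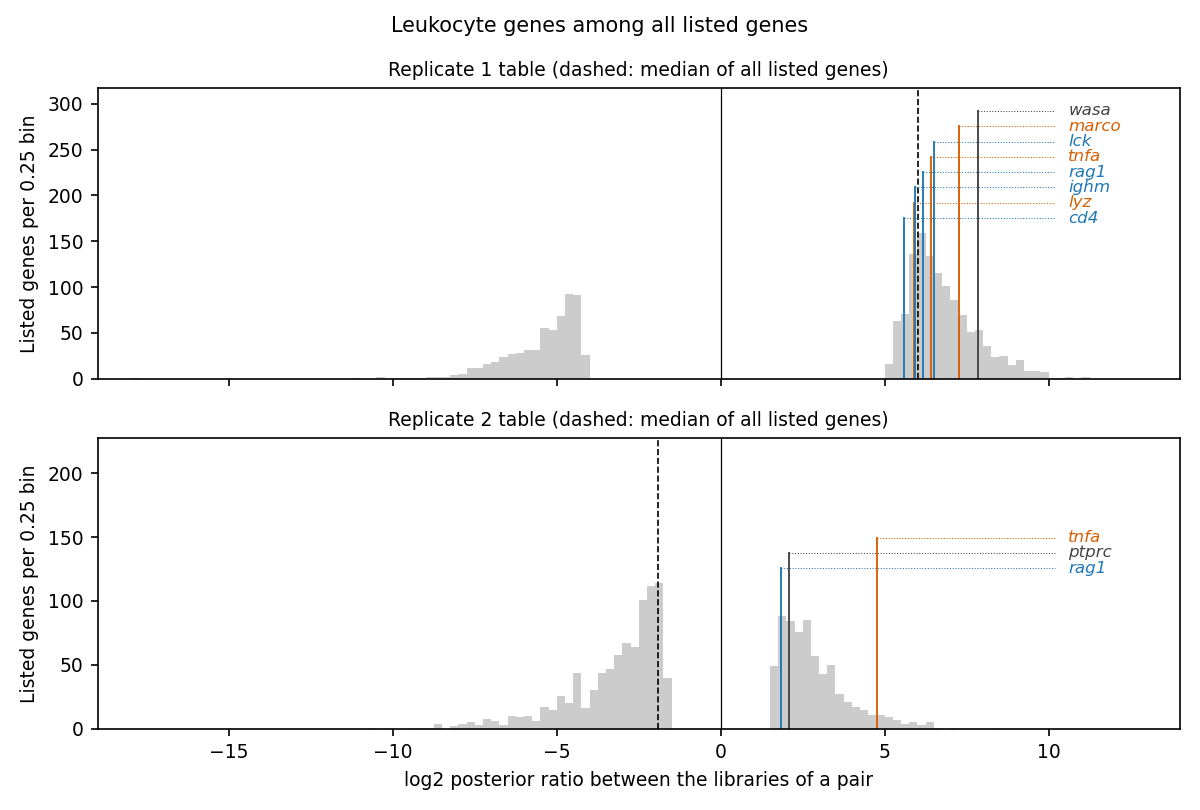
Histograms of the log2 posterior ratio of all listed genes in each table, with the leukocyte genes marked by lines coloured by class (grey pan-leukocyte, blue lymphoid, orange myeloid) and the median of all listed genes dashed. In replicate 1 the 8 genes lie from 5.59 to 7.85 around the median of 6.02, and in replicate 2 rag1 and ptprc lie at 1.85 and 2.08 and tnfa at 4.78.

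Among themselves the members differed in how far they stood from the edge of the tables. In the authors' deposited tables no ratio above 1 was under 35.3 for replicate 1 or under 2.98 for replicate 2, and the gap on either side of 1 in the plot of ratios shows these edges. In log2 posterior ratio, the order in replicate 1 was wasa (7.85), marco (7.27), lck (6.51), tnfa (6.42), rag1 (6.18), ighm (5.91), lyz (5.89) and cd4 (5.59). The median of all genes above 1 there was 6.55, so wasa and marco lay beyond it and the other 6 short of it. With 1 library on each side, neighbours in this order cannot be told apart. Where the denominator count was 0, the posterior ratio follows the numerator count, which is not scaled to gene length. The order is therefore partly one of numerator counts and does not rank the genes by true fold. The lyz and cd4 genes came last with a denominator count of 1, though their depth-scaled ratios were 124 and 101. In replicate 2 the median above 1 was 2.61, and tnfa lay beyond it while ptprc (2.08) and rag1 (1.85) did not. The ranges of the lymphoid genes (5.59 to 6.51) and the myeloid genes (5.89 to 7.27) overlapped in replicate 1, and wasa, the one pan-leukocyte gene listed there, lay beyond both.

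The wider immune lists held 293 distinct names in 9 lists of leukocyte types and immune functions. Of these, 24 genes were listed in replicate 1, with 17 above 1 and 7 below, and 34 in replicate 2, with 24 above and 10 below. Without the 9 members, 9 of 16 (56.2%) lay above 1 in replicate 1 and 21 of 31 (67.7%) in replicate 2, beside 66.6% and 42.9% of all listed genes. Their median log2 ratio was 5.37 in replicate 1 and 2.11 in replicate 2, beside 6.02 and -1.90 over all listed genes. The rest of the immune genes thus had a share above 1 that was under the background in replicate 1 and over it in replicate 2, and no test was made of either. The one gene of the cytokine list found, il12ba, was below 1 in replicate 2 with recovered counts of 2 and 32. The cytokine gene tnfa, above 1 in both replicates, was placed on the TNF list. Of the antigen presentation list, mhc1zel was below 1 in replicate 1, at 407 and 5006. In replicate 2, CABZ01031754.1 (mhc1uma in the name table) was below 1 at 0 and 18, and ctssb.2 above 1 at 204 and 64.

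Pan-leukocyte genes were listed mainly in replicate 2. Beside 42.9% of all listed genes there, 7 of 9 pan-leukocyte genes lay above 1. Among them were lcp1, of the actin-bundling protein L-plastin, with recovered counts of 136 and 14.6, and coro1a, of a leukocyte actin regulator, with 290 and 113. The phosphatase gene PTPN6 had recovered counts of 39.2 and 7, and plek, of the platelet and leukocyte protein pleckstrin, 62 and 10. All 4 had counts in both libraries, like ptprc. Those below 1 were cd9b and CD44, membrane protein genes that epithelia also express, with recovered counts for cd9b of 14 and 255. In replicate 1, sla2 was above 1 with recovered counts of 1019 and 1, and cd9b below 1 with 196 and 14811. Of the markers fixed as defining for leukocytes, ikzf1, laptm5, cd79a, zap70, mpx and spi1b were in neither table, which leaves their levels unknown.

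T cell genes lay above 1 wherever they were listed, 4 of 4 in replicate 1 (lck and cd4 among them) and 3 of 3 in replicate 2. Of all listed genes, 66.6% lay above 1 in replicate 1 and 42.9% in replicate 2, and the rest lay below. The foxp3b gene, of the T cell list, had recovered counts of 433 and 6 in replicate 1 and of 78 and 17 in replicate 2. The authors' deposited tables gave it posterior folds of 35.8 and 5.47. The T cell transcription factor gene tbx21 had recovered counts of 404 and 0 in replicate 1 alone, and the chemokine receptor gene ccr9a had 284 and 62 in replicate 2 alone. B cell genes other than ighm lay mostly on the other side, with 3 of 3 below 1 in replicate 1 and 3 of 4 in replicate 2, where the exception was prdm1a, of a plasma cell transcription factor, with 152 and 36. The genes of the B cell receptor kinase btk and of its adaptor blnk, which act downstream of the receptor that ighm encodes, were below 1 in both. Recovered counts of btk were 158 and 5852 in replicate 1 and 30 and 152 in replicate 2. Those of blnk were 1035 and 29786 in replicate 1 and 136 and 608 in replicate 2. CD22 was also below 1 in replicate 1, with recovered counts of 8.72 and 183. In the authors' deposited tables the log2 ratios of btk were -5.97 and -2.0, and those of blnk -5.62 and -1.84. These B cell signalling genes therefore lay on the side opposite to ighm and on that of the ductal genes described below. The denominator library of replicate 1, where btk and blnk were high, held a recovered count of 0 for ighm. Whether B cells or other cells gave the reads of these genes was not tested.

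Macrophage genes were the most numerous of the immune lists, with 7 of 7 above 1 in replicate 1 and 10 of 13 in replicate 2. Over all listed genes the shares above 1 were 66.6% and 42.9%, and the 7 include the member marco. The complement gene c1qc, made by macrophages, had recovered counts of 584 and 0 in replicate 1 and of 141 and 24.2 in replicate 2. The phosphatidylserine receptor gene havcr1, named zgc:92647 in the file, had 439 and 0 in replicate 1 and 40 and 5 in replicate 2. A copy of MFAP4, a family placed on the macrophage list, had 850.0 and 0 in replicate 1 and 74.5 and 10.3 in replicate 2. These 3 genes kept their side in both tables, as foxp3b, tnfa and rag1 did. In replicate 2 the macrophage growth factor receptor gene csf1ra had recovered counts of 179 and 61, and mpeg1, of a pore-forming protein of macrophages, had 446 and 128. The exceptions there were another 2 copies of MFAP4 and a further copy of MPEG1. The MFAP4 copies below 1 had recovered counts of 33 and 881 and of 20 and 651, and the MPEG1 copy had 33 and 214. Copies of one family thus lay on both sides, and reads may be shared among such copies. The neutrophil list added csf3r, the receptor gene for a granulocyte growth factor, to lyz, with recovered counts of 101 and 19 in replicate 2.

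**Figure D3:**
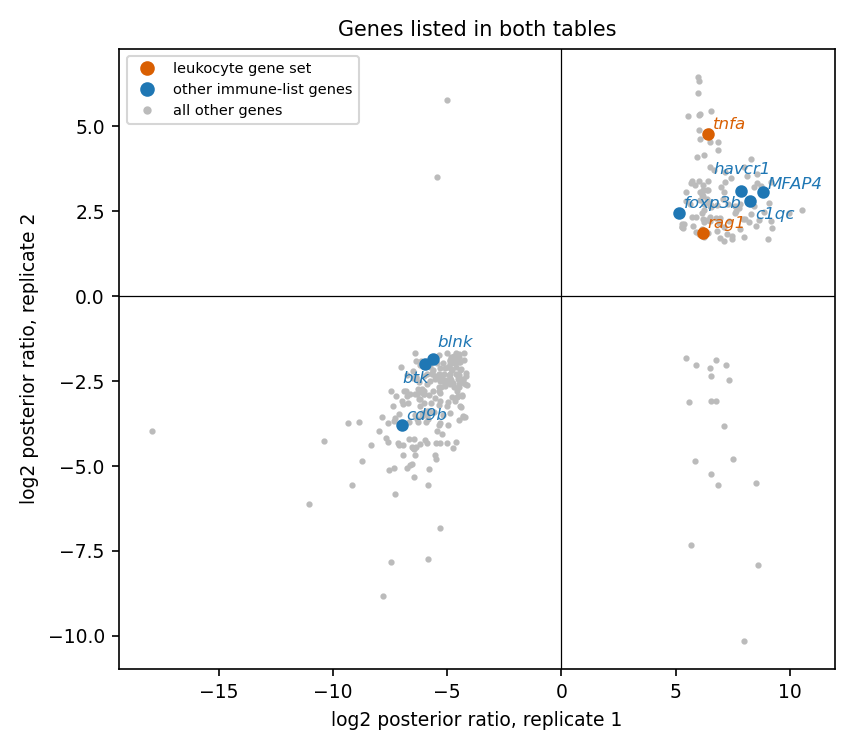
Log2 posterior ratio in replicate 1 against replicate 2 for the 352 genes listed in both tables, with tnfa and rag1 in orange and the other 7 genes of the immune lists in blue. Of these 9 genes, 6 lie above 1 in both tables and 3 (cd9b, btk and blnk) below 1 in both, and none lies on opposite sides.

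Over the genes of the immune lists found in both tables, 6 were above 1 in both, 3 were below 1 in both and 0 were on opposite sides. Of all genes in both tables, 32.7% lay above 1 in both, 61.4% below 1 in both and 5.97% on opposite sides, so keeping a side was the usual pattern there. The members among the 6 were tnfa and rag1, at mean log2 ratios of 5.60 and 4.02. Blocked by replicate, so that each pair entered as 1 log2 ratio, the moderated test of limma over the 352 shared genes gave tnfa a Benjamini-Hochberg adjusted p of 0.0678 (unadjusted 0.0109) and rag1 one of 0.104 (unadjusted 0.0672). Neither passed an adjusted threshold of 0.05. Of the 352 genes, 4 passed it, 0 of them above 1, and 197 had an unadjusted p under 0.05, so unadjusted values of this size were common among the shared genes. These genes had been selected for a large ratio in both tables, so the p-values carry that selection. Ratios at a denominator count of 0, such as those of tnfa, also depend on the added constant. The lowest ratio listed above 1 differed as well (35.3 in replicate 1 and 2.98 in replicate 2). The spread that the test uses holds these differences and is not replicate variation alone.

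Markers of some other cells moved with the leukocyte genes. As background, 66.6% of all listed genes lay above 1 in replicate 1 and 42.9% in replicate 2, and the rest lay below. On the side above 1, the acinar list of digestive enzyme genes had 23 of 23 listed genes in replicate 2. Their posterior folds in the authors' deposited table were 4.48 to 12.6, beside 4.22 for ptprc and 3.61 for rag1. The fold of tnfa there, at a denominator count of 0, was 27.5. In replicate 1 the same list had 1 gene, CUZD1, above 1 with recovered counts of 1347 and 4.56. Haemoglobin genes hbaa1 and ba1 were above 1 in replicate 2, with recovered counts of 914 and 130 and of 933 and 262. They were given the same locus, and reads may be shared between them. Thrombocyte genes were above 1 in replicate 1, 3 of 3, with itga2b, of the platelet integrin, at 168 and 1. The one thrombocyte row of replicate 2, named itga2b in the file and itga2.1 in the name table, was below 1 with recovered counts of 3 and 46. On the other side, the ductal and centroacinar list had 16 of 16 genes below 1 in replicate 1 and 17 of 18 in replicate 2. The chloride channel gene cftr, which marks ducts and centroacinar cells, had log2 ratios of -8.74 and -4.86 in the authors' deposited tables. The leukocyte members thus lay on the side of the acinar and haemoglobin genes in replicate 2 and of the thrombocyte genes in replicate 1, and the part of any of these cells in the result was not tested.

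**Figure D4:**
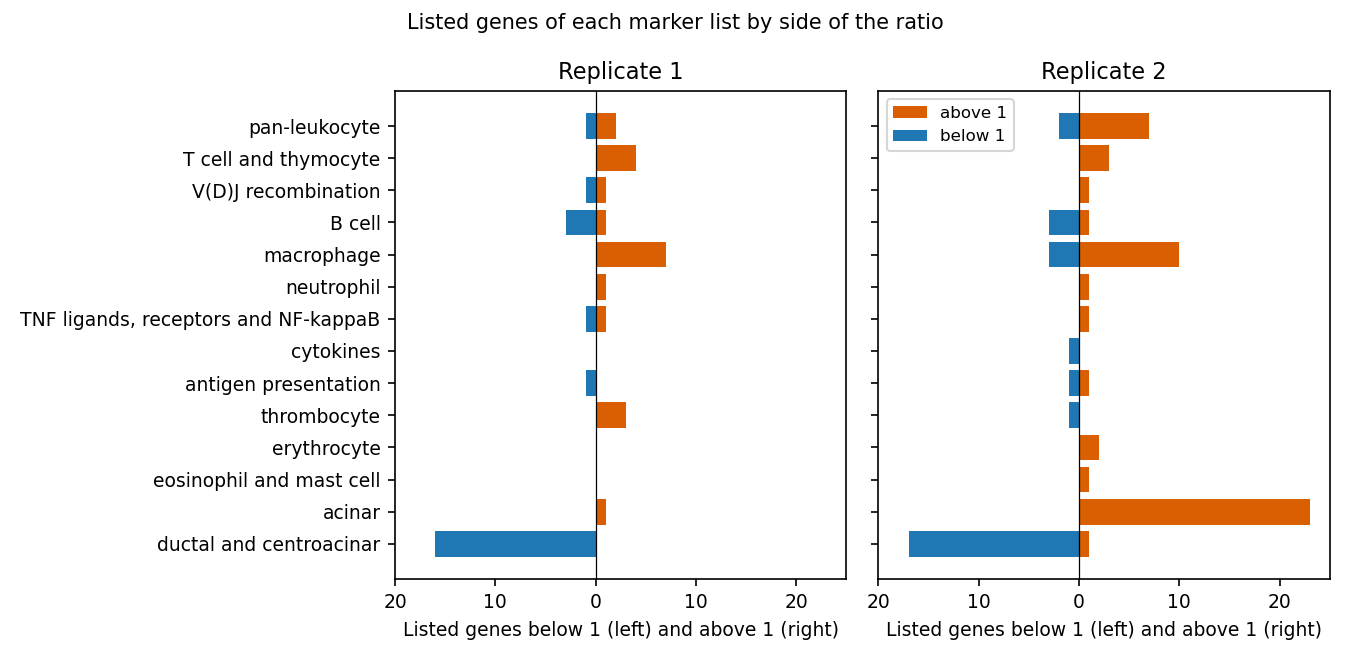
Number of listed genes of each marker list above 1 (orange, right) and below 1 (blue, left) in each table. Macrophage and T cell genes lie mainly to the right, B cell genes mainly to the left, acinar genes to the right in replicate 2 (23 of 23) and ductal and centroacinar genes to the left in both (16 of 16 and 17 of 18). Of all listed genes, 66.6% lie above 1 in replicate 1 and 42.9% in replicate 2.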

How the data were processed

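The authors deposited 2 tables, 1 per replicate, of genes called different between the CAC and non-CAC libraries. Per the file headers, each row holds 2 probabilities, of equality and of difference after the authors' model, and 2 folds as linear ratios. RSEM and the builds Zv9 and danRer7 are named without role or version in the submitters' processing notes, from which Zv9 was taken for the printed loci. Loci are printed as the authors gave them and may span more than 1 gene, as hbaa1 and ba1 share theirs. Lengths and distances are those of these spans. The model itself is named neither in the headers nor in the labels.

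Both deposited folds were read as (a + c)/(b + c), with the same a and b but another c in each column. This is inferred from the values and stated in no header. Where the folds of a gene differed by over 10 times (819 genes in replicate 1 and 163 in replicate 2), the ratio of the constants was the same for every gene, to within 1.3e-10 and 3.7e-11, as it must be where b is 0. The smallest b shared by at least 10 genes was taken as 1 read. Counts up to 10 in the lower library were then within 0.02 of a whole number for 73.4% of genes in replicate 1 and 67.6% in replicate 2 (RSEM estimates need not be whole). With a constant of 0.01 in the uncorrected fold the scale factors of a pair multiplied to 1.00, and counts in reads do not depend on that choice. Tested on folds simulated from this form, the script returned the counts put in, which checks the arithmetic and not the form. A count test had been planned for the case of deposited counts per library, but none was run, because only called genes are held and the numerator is unnamed.

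Intervals on count ratios are exact (Clopper-Pearson) at 95% on counts rounded to whole numbers, and they and the limit of 3 counts cover counting error only. Neither accounts for the selection of genes by listing. Genes were matched, ignoring case, by gene name or by the symbol of the identifier in a name table, which held 2048 of 3020 identifiers. The 9 members, the 14 lists (391 distinct names) and the rule for named genes (all members, list genes in both tables, and up to 6 per list and table) were chosen with earlier results of these data known. The replicate numbers pair the libraries, because each table holds both libraries of a number. Python 3.11.15, pandas 2.3.3, scipy 1.17.1 and limma 3.58.1 were used.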

Additional observations from a re-analysis of the deposited data

How the results depend on the processing

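The counts of members above 1 were 8 in replicate 1, 3 in replicate 2 and 2 in both. With a posterior probability of equality under 0.001 they were 2, 2 and 0, and without genes at 0 in the denominator library 2, 2 and 0. Of all genes above 1, 63.6% in replicate 1 and 9.7% in replicate 2 were at 0 in that library. The share of all listed genes that pass the cut of 0.001 was not worked out, so the fall at that cut cannot be read as particular to the members. At 4-fold they were 8, 2 and 1, as rag1 in replicate 2 is under that size. That cut could remove no member in replicate 1, where no ratio above 1 under 35.3 was listed. Centred on the median of each table (6.02 and -1.90 on the log2 scale) they were 5, 3 and 2. The 3 members that then fell below 0 in replicate 1 were cd4 (-0.43), ighm (-0.11) and lyz (-0.13). The uncorrected fold gave 8, 3 and 2. Under the inferred form both folds of a gene lie on the same side of 1, so that outcome was fixed. Exact matching on the name column gave 7, 3 and 2, since marco is written in capitals there. Taking 1 table alone in place of both, the count of 2 ranged from 3 (without replicate 1) to 8 (without replicate 2). With the uncorrected fold the mean log2 ratio rose from 5.60 to 12.4 for tnfa and from 4.02 to 7.61 for rag1, because that column has a smaller constant where the denominator is at 0. The replicate block left the mean ratios of tnfa and rag1 as they were, which is fixed because it fits the mean of the same ratios. Its adjusted p is given with them. The denominator library held 0 or 1 count for all 8 members of replicate 1 and for tnfa in replicate 2, so counting error leaves the size of those ratios wide or gives a lower bound only. The lowest ratio listed above 1 in replicate 1 (35.3) also favours such low counts there.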
